A study of Homo sapiens with 12 samples.

Results

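The 34 genes described here encode the enzymes that turn glucose into lactate, the carriers that move both sugars and lactate across the plasma membrane, the hypoxia-inducible factor subunit HIF1A, and 8 known targets of that factor outside glycolysis. They were chosen by symbol, with earlier results of these data known, so their shares of calls beside those of all genes are descriptive. All 34 were found among the 57992 gene IDs of the count table. Messenger RNA was sequenced in 12 libraries of induced microglia-like cells, which were derived from the established human pluripotent line H1 and resemble the resident macrophages of the brain. In all, 5 groups were compared. These were MEF2C knockout cells given lipopolysaccharide and BMS265246 (KO LPS BMS, 2 libraries), knockout cells given lipopolysaccharide (KO LPS, 2 libraries), unedited cells given lipopolysaccharide (WT LPS, 2 libraries), knockout cells without it (KO, 3 libraries) and unedited cells without it (WT, 3 libraries). Lipopolysaccharide (LPS) is a bacterial cell wall component sensed through TLR4, MEF2C is a transcription factor, and the series title presents BMS265246 in connection with inhibition of the kinase CDK2. No library held unedited cells with the compound or the compound without LPS, so its effect could be compared only within LPS-treated knockout cells. The labels number the libraries of a group as biological replicates. The sources used here do not give doses, times, the kind of edit or the number of clones.

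In glycolysis, hexokinases trap glucose as glucose phosphate, phosphofructokinase commits it to breakdown, and pyruvate kinase and lactate dehydrogenase finish the route to lactate. Macrophages and microglia stimulated with LPS are known for raising glucose uptake and lactate output. HIF1A is the oxygen-regulated subunit of a transcription factor that binds promoters of many glycolytic genes. Its protein is controlled largely by prolyl hydroxylation and degradation, which an RNA measurement does not show. In bulk RNA, fewer cells of a type and less RNA per cell cannot be told apart.

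Libraries held between 13888283 and 17639136 counts. Levels are given as CPM, counts per 1000000 counts of the TMM-scaled library, which compare a gene between libraries and not 1 gene with another. Allowing for 3 counts, a gene at 0 could have up to 0.154 to 0.236 CPM, a bound that covers counting error only. All 34 genes passed the filter on low counts, and 3 of them, EGLN3, CA12 and ANKRD37, stayed under 5 CPM in every library. EGLN3 passed it only through its higher counts in KO LPS. Its calls and ratios in comparisons with KO LPS, and its place in the counts of calls there, are therefore descriptive. The MEF2C transcript was present in the knockout, at 43.7 and 44.1 CPM in KO LPS BMS. It had 45.9 and 46.8 CPM in KO LPS against 49.6 and 51.6 CPM in WT LPS (log2 fold change -0.13 ± 0.07, not called, edgeR adjusted p = 0.187). Without LPS it had 136, 129 and 135 CPM in KO against 193, 183 and 177 CPM in WT (-0.47 ± 0.05, adjusted p = 4e-07). A transcript can remain after an edit that removes the protein, so with LPS this level is no check of the knockout label. All 13 microglial markers were at 1 CPM or more in each group, with a summed level of 6891 to 8047 CPM. Of these 13, 8 were called higher and 4 lower in KO LPS BMS against KO LPS (22.3% and 25.5% of all genes). In KO LPS against WT LPS 4 were higher and 5 lower (15.6% and 15.0%). For KO against WT the counts were 2 and 5 (10.2% and 11.4%). With LPS, 3 were higher and 4 lower in KO cells (24.5% and 20.3% of all genes), and 2 and 5 in WT cells (28.9% and 30.8%). The sum does not show such opposite shifts. Pluripotent cell markers summed to at most 0.618 CPM and neuronal markers to at most 4.25 CPM. The 7 astrocyte and oligodendrocyte markers summed to 103 to 108 CPM in KO LPS BMS, 81 to 81.9 CPM in KO LPS, 56.2 to 59.9 CPM in WT LPS, 122 to 138 CPM in KO and 142 to 153 CPM in WT, with AQP4, ALDH1L1 and MOG at 0 in each group. The 7 granulocytic and mast cell markers summed to 241 to 247 CPM in KO LPS BMS, 214 to 232 CPM in KO LPS, 184 to 186 CPM in WT LPS, 191 to 209 CPM in KO and 152 to 164 CPM in WT, and the 3 tested were called higher in KO against WT and in KO LPS against WT LPS. So were the 2 tested of 9 erythroid and megakaryocytic markers, which summed to 38.1 to 38.9 CPM in KO LPS BMS, 33 to 38.2 CPM in KO LPS, 20.3 to 21.7 CPM in WT LPS, 33.8 to 36.7 CPM in KO and 25.6 to 30.5 CPM in WT. Of all genes, 10.2% were called higher in KO against WT and 15.6% in KO LPS against WT LPS. The 6 mesenchymal markers summed to at most 59 CPM. The 6 endothelial markers summed to 469 to 476 CPM in KO LPS BMS, 307 to 343 CPM in KO LPS, 221 to 248 CPM in WT LPS, 560 to 593 CPM in KO and 509 to 542 CPM in WT, with CLDN5 at 0 in each group except KO. Of these 6, 4 averaged at least 1 CPM in KO LPS BMS, 1 in WT LPS and 3 in each other group. For these markers, 4 of 5 tested were called higher in KO LPS against WT LPS (15.6% of all genes). In each genotype 2 were called lower with LPS (20.3% of all genes in KO cells and 30.8% in WT cells). The 6 lymphocyte markers summed to 17.4 to 17.8 CPM in KO LPS BMS, 25.5 to 33.5 CPM in KO LPS, 36.8 to 38.8 CPM in WT LPS, 17 to 20.4 CPM in KO and 17.7 to 20.2 CPM in WT, with MS4A1 at 0 in each group. In each group, 2 of 7 astrocyte and oligodendrocyte markers and 3 of 7 granulocytic and mast cell markers averaged at least 1 CPM. Of the lymphocyte markers, 1 of 6 did in each group. These sums thus rest on few genes. The part of these markers in the results was not tested. The pair of KO LPS libraries differed from each other more than any other replicate pair, with a chi-square of 11.05 per degree of freedom against 2.02 to 6.99.

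Promoter sequence is shown for 8 of the genes that were lower with BMS265246 in LPS-treated knockout cells. These 8 carried the letters ACGTG on either strand within 250 bases before a RefSeq start site (GRCh38.p14). ACGTG is a form of the core bound by HIF, and other forms of that core were not searched, marked or counted. Capitals mark each match, so CACGT is the same letters read on the other strand, and CACGTG, which E-box factors also bind, holds both. Each stretch runs from 30 bases before its outermost matches to 30 bases after them, cut at the window's ends, and is written 5′ to 3′ on the strand of the gene.
LDHA: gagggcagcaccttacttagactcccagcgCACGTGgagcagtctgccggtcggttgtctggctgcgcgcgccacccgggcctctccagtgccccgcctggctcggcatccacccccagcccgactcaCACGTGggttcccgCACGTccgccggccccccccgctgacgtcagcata
PGK1: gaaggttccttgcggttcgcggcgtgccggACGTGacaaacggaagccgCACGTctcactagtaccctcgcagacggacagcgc
ENO2: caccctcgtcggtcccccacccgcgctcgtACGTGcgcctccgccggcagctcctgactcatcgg
PFKP: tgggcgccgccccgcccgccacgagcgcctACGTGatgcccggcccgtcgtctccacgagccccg
PFKFB3: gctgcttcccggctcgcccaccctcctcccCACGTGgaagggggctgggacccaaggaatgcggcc
HK2: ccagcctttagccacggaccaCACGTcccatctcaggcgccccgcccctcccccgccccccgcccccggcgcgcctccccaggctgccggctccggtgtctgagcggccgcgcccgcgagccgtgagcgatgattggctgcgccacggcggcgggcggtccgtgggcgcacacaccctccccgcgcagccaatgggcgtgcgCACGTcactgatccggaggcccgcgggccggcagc
BNIP3: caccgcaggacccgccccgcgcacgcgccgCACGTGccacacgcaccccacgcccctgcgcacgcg
P4HA1: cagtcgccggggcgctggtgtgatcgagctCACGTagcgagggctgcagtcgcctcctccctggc
These stretches lie at chr11:18394348-18394524, chrX:78104016-78104099, chr12:6914432-6914496, chr10:3069020-3069084, chr10:6202794-6202859 and chr2:74833877-74834113 on the plus strand, and at chr10:131982022-131982087 and chr10:73096918-73096982 on the minus strand. LDHA held 5 matches, the most of the 8, and CACGTG accounted for 4 of them. ENO2, PFKP and P4HA1 held 1 match each. RefSeq windows were at hand for 30 of the 34 genes and for none of SLC2A3, SLC16A1, VEGFA and NDRG1. Of the 30, 16 (53.3%) held the letters in at least 1 window, against 5935 of 27305 genes (21.7%) in the whole table. Genes with several start sites have more windows and so more room for a match. Counted by window, 19 of 56 member windows (33.9%) held the letters, against 6501 of all 35116 windows (18.5%). The letters were present in 8 of 13 windowed members that were lower with the compound, 0 of 5 that were higher and 8 of 12 that were not called, so they did not set the lower members apart from those not called. A match is a description of letters, not evidence of binding.

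LPS raised most of the set in both genotypes. In KO LPS against KO, 23 of the 34 genes were called higher (67.6%) and 3 lower (8.82%). Over all 16022 genes of the test, the higher calls came to 24.5% and the lower calls to 20.3%, 44.8% in all. In WT LPS against WT, 24 were higher (70.6%) and 4 lower (11.8%), against 28.9% and 30.8% of all genes, 59.7% in all. With library totals alone, without TMM scaling, 25.5% of the calls over all genes in KO cells and 26.7% in WT cells were higher, against 54.7% and 48.4% with TMM, and 7 members in KO cells and 9 in WT cells were lower. A gene was called at an adjusted p under 0.05 from edgeR's quasi-likelihood test over all genes tested, and changes below are log2 fold changes ± SE. The median change of the 34 was 0.6 in KO cells and 0.87 in WT cells, while that of all genes was -0.004 and -0.072. The 18 glycolytic enzymes had medians of 0.38 in KO cells and 0.34 in WT cells. The medians were 1.66 in KO cells and 1.24 in WT cells for the 5 transporters, and 1.52 in KO cells and 1.62 in WT cells for the 8 HIF targets outside glycolysis.

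Among the glucose carriers, SLC2A6 had the largest change in each genotype. SLC2A6, a lysosomal and plasma membrane sugar transporter of inflammatory macrophages, had 110 and 98 CPM in KO LPS BMS, 200 and 281 in KO LPS, 223 and 172 in WT LPS, 13.9, 16 and 13.1 in KO, and 16, 18.8 and 18.2 in WT. Every LPS library lay far above every library without LPS, and the change was 4.07 ± 0.18, adjusted p = 1.01e-07 in KO LPS over KO and 3.48 ± 0.18, adjusted p = 1.48e-07 in WT LPS over WT. SLC2A3, which encodes the high-affinity carrier GLUT3, had 718 and 727 CPM in KO LPS BMS, 557 and 545 in KO LPS, 426 and 434 in WT LPS, 137, 136 and 150 in KO, and 94, 103 and 89.6 in WT. Its 6 LPS libraries did not overlap with the 6 others, with changes of 1.97 ± 0.06 in KO cells and 2.17 ± 0.06 in WT cells. SLC2A1, which encodes the widely expressed carrier GLUT1, had 13.3 and 10.6 CPM in KO LPS BMS, 26.3 and 32.3 in KO LPS, 25.5 and 21.6 in WT LPS, 8.45, 9.23 and 9.94 in KO, and 12.4, 11.8 and 14.1 in WT. It rose by 1.66 ± 0.13 in KO cells and 0.88 ± 0.12 in WT cells. Of the lactate carriers, SLC16A1 (MCT1) had 42.6 and 40.3 CPM in KO LPS BMS, 53.7 and 50.4 in KO LPS, 66.9 and 67 in WT LPS, 31.7, 30.4 and 27.3 in KO, and 29.8, 28.3 and 27.2 in WT. It rose by 0.81 ± 0.08 in KO cells and 1.24 ± 0.07 in WT cells. SLC16A3 (MCT4), the export carrier of glycolytic cells, had 1346 and 1029 CPM in KO LPS BMS, 1016 and 1526 in KO LPS, 857 and 703 in WT LPS, 979, 1164 and 1075 in KO, and 864, 948 and 972 in WT. Its replicates were widely spread. KO LPS overlapped with KO, and WT LPS lay just below WT, but it was not called for LPS in either genotype (0.24 ± 0.19 in KO cells and -0.25 ± 0.20 in WT cells). SLC16A3 shares 482 exon bases with CSNK1D on the opposite strand, and it is not known whether the counting used strand.

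The hexokinases moved in different directions. HK2, the inducible mitochondria-bound form, had 217 and 206 CPM in KO LPS BMS, 320 and 326 in KO LPS, 297 and 280 in WT LPS, 136, 136 and 138 in KO, and 119, 127 and 126 in WT. It rose by 1.24 ± 0.05 in KO cells and 1.22 ± 0.05 in WT cells, with no overlap between LPS libraries and the rest. HK3, a myeloid form, had 299 and 269 CPM in KO LPS BMS, 228 and 261 in KO LPS, 108 and 94.5 in WT LPS, 301, 343 and 324 in KO, and 193, 200 and 205 in WT. Its WT LPS libraries were the lowest of the 12, with changes of -0.40 ± 0.07, adjusted p = 0.000122 in KO cells and -0.97 ± 0.08, adjusted p = 9.14e-10 in WT cells. HK1, the constitutive form, had 259 and 248 CPM in KO LPS BMS, 232 and 244 in KO LPS, 248 and 241 in WT LPS, 281, 286 and 283 in KO, and 268, 270 and 265 in WT. It was called lower in both genotypes, with changes of -0.25 ± 0.05 in KO cells and -0.13 ± 0.05 in WT cells. The WT call for HK1 ended without WT replicate 2 or without WT LPS replicate 2 (adjusted p of 0.0704 and 0.144), and with DESeq2 or its size factors.

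At the phosphofructokinase step the control gene moved more than the enzyme. PFKFB3, which makes the sugar bisphosphate that activates phosphofructokinase, had 94.3 and 91.4 CPM in KO LPS BMS, 128 and 151 in KO LPS, 202 and 200 in WT LPS, 42.7, 41.7 and 42.1 in KO, and 57.9, 54.9 and 54.6 in WT. It rose by 1.73 ± 0.07, adjusted p = 1.59e-15 in KO cells and 1.85 ± 0.06, adjusted p = 1.62e-16 in WT cells. PFKFB4, a relative with stronger phosphatase activity, had 44.9 and 43.8 CPM in KO LPS BMS, 49.4 and 51.6 in KO LPS, 32.4 and 29.3 in WT LPS, 53, 54.2 and 57.3 in KO, and 53.3, 59.9 and 56.9 in WT. Its WT LPS libraries were lower than all others, with a change of -0.88 ± 0.08, adjusted p = 1.33e-09 in WT cells, while -0.12 ± 0.07 in KO cells was not called. Among the phosphofructokinases themselves, PFKP, the platelet form, had 34.8 and 29.5 CPM in KO LPS BMS, 43.2 and 49.9 in KO LPS, 54.8 and 40.5 in WT LPS, 27.1, 28.5 and 26.9 in KO, and 21.9, 24.8 and 24.9 in WT. It rose by 0.76 ± 0.11 in KO cells and 1.00 ± 0.11 in WT cells. PFKL, the liver form and the largest share per length, had 495 and 428 CPM in KO LPS BMS, 289 and 382 in KO LPS, 292 and 251 in WT LPS, 277, 315 and 303 in KO, and 309, 334 and 332 in WT. It was not called for LPS (0.17 ± 0.12 in KO cells and -0.26 ± 0.12 in WT cells). PFKM, the muscle form, stayed between 19.6 and 27.9 CPM in all libraries. Its call in WT cells (-0.34 ± 0.11) ended without WT replicate 3 or WT LPS replicate 2 (adjusted p of 0.0515 and 0.0856). PFKM shares 628 exon bases with SENP1 on the opposite strand.

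Most enzymes of the later steps rose with LPS in both genotypes. PKM, pyruvate kinase, had 2214 and 2062 CPM in KO LPS BMS, 2627 and 2585 in KO LPS, 2706 and 2457 in WT LPS, 1897, 1931 and 1875 in KO, and 1772, 1744 and 1735 in WT. It rose by 0.46 ± 0.05 in KO cells and 0.56 ± 0.05 in WT cells, with no overlap between the 6 libraries with LPS and the 6 without. ENO1, the main enolase, had 1591 and 1491 CPM in KO LPS BMS, 1533 and 1525 in KO LPS, 1847 and 1714 in WT LPS, 1041, 1045 and 1016 in KO, and 1030, 995 and 958 in WT. Its changes were 0.56 ± 0.05 in KO cells and 0.84 ± 0.05 in WT cells. ENO2, the enolase known from neurons and induced by hypoxia, had 19.5 and 23.6 CPM in KO LPS BMS, 49.3 and 48.2 in KO LPS, 33.7 and 31 in WT LPS, 22.1, 24.5 and 21.4 in KO, and 18.6, 17.4 and 17.9 in WT. It rose by 1.1 ± 0.09 in KO cells and 0.85 ± 0.09 in WT cells. PGK1, phosphoglycerate kinase, had 721 and 730 CPM in KO LPS BMS, 831 and 782 in KO LPS, 815 and 785 in WT LPS, 523, 508 and 519 in KO, and 448, 419 and 417 in WT. Its changes were 0.64 ± 0.05 in KO cells and 0.90 ± 0.05 in WT cells. GAPDH, often used as a constant control gene, had 1203 and 1164 CPM in KO LPS BMS, 1216 and 1201 in KO LPS, 1249 and 1082 in WT LPS, 926, 913 and 901 in KO, and 891, 859 and 846 in WT. It was called higher with LPS in both genotypes (0.40 ± 0.05, adjusted p = 1.4e-06 in KO cells and 0.43 ± 0.05, adjusted p = 3.44e-07 in WT cells). So were, with KO values before WT values, TPI1 (0.35 ± 0.05 and 0.34 ± 0.05) and GPI (0.35 ± 0.07 and 0.33 ± 0.07). ALDOA, the main aldolase, had 1121 and 983 CPM in KO LPS BMS, 961 and 1075 in KO LPS, 863 and 692 in WT LPS, 736, 801 and 777 in KO, and 605, 646 and 625 in WT. It rose by 0.40 ± 0.09 in KO cells and 0.31 ± 0.09 in WT cells. The calls of GPI, ALDOA and TPI1 in both genotypes ended when libraries were scaled by their totals alone, and the ALDOA call in WT cells also ended without WT LPS replicate 1 (adjusted p = 0.109). PGAM1, phosphoglycerate mutase, was called in WT cells at 0.12 ± 0.05, adjusted p = 0.0498, a call that ended without any 1 of 10 libraries and turned to -0.17 with library totals alone. In KO cells PGAM1 was not called (0.07 ± 0.05). ALDOC was called in neither genotype and lay between 14.5 and 18.7 CPM throughout.

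Of the lactate dehydrogenase subunits, LDHA rose and LDHB did not. LDHA, whose subunit favours making lactate from pyruvate, had 412 and 424 CPM in KO LPS BMS, 720 and 678 in KO LPS, 847 and 861 in WT LPS, 435, 413 and 428 in KO, and 354, 335 and 336 in WT. It rose by 0.72 ± 0.05, adjusted p = 4.41e-11 in KO cells and 1.32 ± 0.05, adjusted p = 4.6e-16 in WT cells. LDHB, whose subunit favours the reverse reaction, had 366 and 381 CPM in KO LPS BMS, 300 and 273 in KO LPS, 297 and 318 in WT LPS, 331, 322 and 313 in KO, and 320, 299 and 299 in WT. It fell slightly in KO cells (-0.17 ± 0.06, adjusted p = 0.0202), a call that ended without KO replicate 1 or KO LPS replicate 2 (adjusted p of 0.0749 and 0.27), and was not called in WT cells (0.01 ± 0.06, or -0.28 with library totals alone).

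HIF1A transcript rose with LPS in both genotypes. It had 1021 and 1105 CPM in KO LPS BMS, 943 and 877 in KO LPS, 1209 and 1286 in WT LPS, 530, 489 and 515 in KO, and 468, 447 and 439 in WT. No group overlapped with another. The changes were 0.83 ± 0.05, adjusted p = 1.55e-11 in KO cells and 1.47 ± 0.05, adjusted p = 3.48e-16 in WT cells. Of its targets, ADM, which encodes the vasodilator peptide adrenomedullin, had 136 and 121 CPM in KO LPS BMS, 85.1 and 112 in KO LPS, 91 and 75.7 in WT LPS, 11, 12.2 and 12.5 in KO, and 8.97, 10.9 and 10.6 in WT. It rose by 3.04 ± 0.13 in KO cells and 3.04 ± 0.13 in WT cells, and the difference between these was not called (0.01 ± 0.19). VEGFA, the angiogenic growth factor, had 76.4 and 74.8 CPM in KO LPS BMS, 82.3 and 98.3 in KO LPS, 133 and 125 in WT LPS, 30.4, 31.9 and 31.2 in KO, and 30.9, 34.1 and 32.6 in WT. It rose by 1.53 ± 0.07 in KO cells and 1.99 ± 0.07 in WT cells. BNIP3, a mitophagy receptor, had 18.9 and 19.3 CPM in KO LPS BMS, 42.8 and 46.5 in KO LPS, 33.7 and 28 in WT LPS, 11.6, 11.7 and 12.3 in KO, and 6.86, 7.26 and 7.16 in WT. It rose by 1.91 ± 0.10 in KO cells and 2.12 ± 0.10 in WT cells. P4HA1, a collagen prolyl hydroxylase subunit, had 89.2 and 83.9 CPM in KO LPS BMS, 167 and 149 in KO LPS, 168 and 173 in WT LPS, 94.7, 88.9 and 96.3 in KO, and 76.1, 67.2 and 70.4 in WT. It rose by 0.76 ± 0.07 in KO cells and 1.26 ± 0.07 in WT cells. In each of these genes the libraries with LPS alone lay above those of the same genotype without LPS.

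The 3 low targets rest on few reads. CA12, a membrane carbonic anhydrase, had 20 and 26 counts in KO LPS against 4, 5 and 2 in KO. In unedited cells it had 52 and 55 counts in WT LPS against 3, 7 and 6 in WT. With library size taken into account this was a 7.22-fold higher level in KO LPS (95% counting interval 3.68 to 15.5) and a 12.4-fold higher level in WT LPS (7.27 to 22.4). EGLN3, a HIF prolyl hydroxylase, had 27 and 21 counts in KO LPS against 8, 6 and 15 in KO, a ratio of 2.86 (1.77 to 4.7). It had 7 and 9 counts in WT LPS against 6, 3 and 5 in WT, a ratio of 2.11 (0.966 to 4.67). The EGLN3 call in KO cells ended without KO LPS replicate 1 (adjusted p = 0.0579), and its change in WT cells was not called. EGLN3 passed the filter only through KO LPS, so its call in KO cells is descriptive. ANKRD37, whose exons share 909 bases with UFSP2 on the opposite strand, had 2.29 and 1.74 CPM in KO LPS BMS, 1.61 and 2.33 in KO LPS, 2.06 and 1.44 in WT LPS, 0.968, 2.35 and 1.56 in KO, and 0.594, 1.03 and 0.927 in WT. Its KO libraries overlapped with each other group. It was called in WT cells (1.02 ± 0.37, adjusted p = 0.0217), but not without WT replicate 1 or WT LPS replicate 1 (adjusted p of 0.0812 and 0.202). NDRG1, a stress-responsive gene, was not called for LPS in either genotype and lay between 104 and 140 CPM. With library totals alone it was called lower in both genotypes, at -0.24 in KO LPS against KO and -0.37 in WT LPS against WT.

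**Figure D1:**
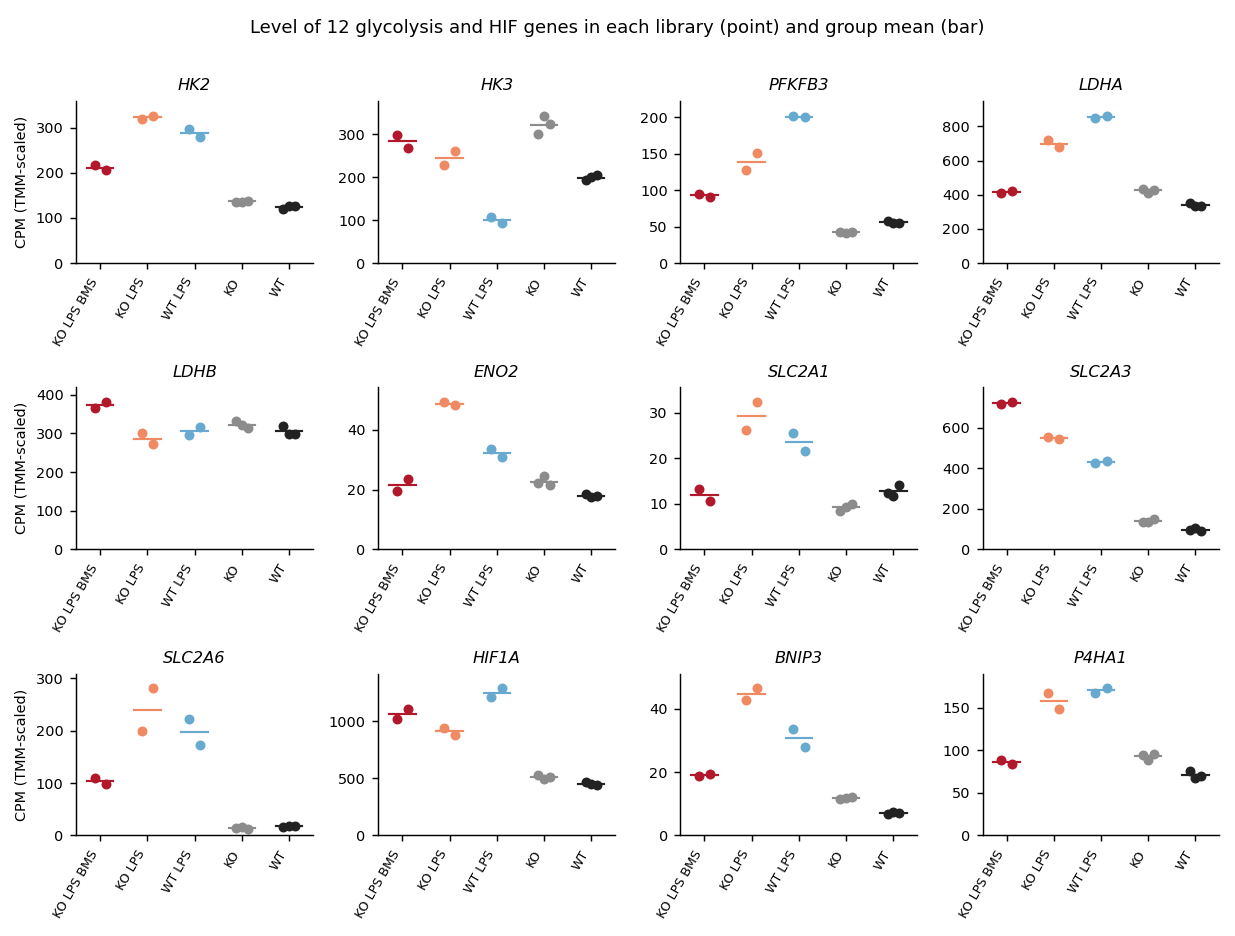
Levels in CPM after TMM scaling (y axis, from 0) of 12 of the 34 genes in each library, with groups on the x axis, points for libraries and short bars for group means. SLC2A6 and SLC2A3 separate the LPS libraries from the rest, HK3 is lowest in WT LPS, and LDHA, ENO2, SLC2A1, BNIP3 and P4HA1 are lower in KO LPS BMS than in KO LPS.

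**Figure D2:**
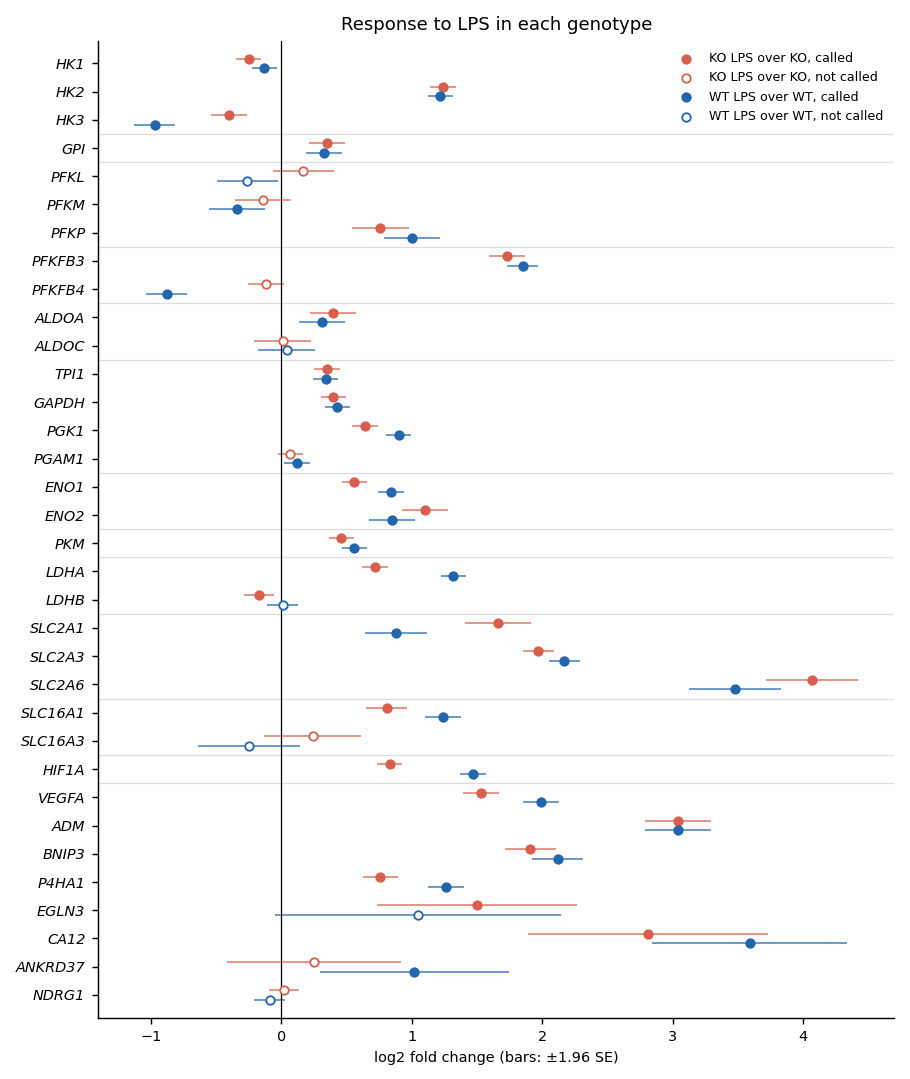
Log2 fold change with LPS (x axis) for each of the 34 genes (y axis, ordered by role), KO LPS over KO in red above WT LPS over WT in blue, with bars of 1.96 SE on each side. Filled points are called at an adjusted p under 0.05; SLC2A6, CA12 and ADM lie farthest to the right and HK3 and PFKFB4 farthest to the left.

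The LPS response differed between genotypes for 10 of the 34 genes, by a test of the difference itself (KO LPS over KO, minus WT LPS over WT). The difference was called positive for 3 (8.82%) and negative for 7 (20.6%), where 6.42% and 5.57% of all genes were called in those directions, 12% in all. The share of positive calls is near that of all genes. LDHA rose less in KO cells, with a difference of -0.60 ± 0.07, adjusted p = 5.77e-06. So did HIF1A (-0.63 ± 0.08, adjusted p = 9.48e-06), P4HA1 (-0.50 ± 0.09, adjusted p = 0.00131), VEGFA (-0.46 ± 0.11) and SLC16A1 (-0.43 ± 0.11). Smaller differences were called for ENO1 (-0.28 ± 0.07) and PGK1 (-0.26 ± 0.07). HK3 fell less in KO cells (0.57 ± 0.10, adjusted p = 0.00108) and SLC2A1 rose more (0.78 ± 0.18, adjusted p = 0.00542). PFKFB4 was called lower with LPS in WT cells and not in KO cells, a difference of 0.76 ± 0.10, adjusted p = 4.28e-05. The ENO1 call ended without WT LPS replicate 1 (adjusted p = 0.0501) and the SLC16A1 call without KO LPS replicate 2 (0.0528). The PGK1 call ended without any 1 of 4 libraries, WT replicates 2 and 3, WT LPS replicate 1 or KO LPS replicate 2 (0.0515 to 0.11). Without KO LPS replicate 1, PFKL and SLC2A6 were called positive (adjusted p of 0.00258 and 0.0148) and LDHB negative (0.0243), which made 5 positive calls.

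Without LPS, the knockout cells had slightly higher levels of part of the set. In KO against WT, 12 of the 34 genes were called higher (35.3%) and 2 lower (5.88%), against 10.2% and 11.4% of all genes, 21.6% in all. The median was 0.13 for the 34 and -0.015 for all genes. BNIP3 (0.74 ± 0.10, adjusted p = 1.15e-05) and HK3 (0.70 ± 0.06, adjusted p = 8.06e-08) had the largest called changes among genes above 5 CPM, and every KO library lay above every WT library for both. SLC2A3 (0.56 ± 0.05), P4HA1 (0.39 ± 0.06), LDHA (0.31 ± 0.04, adjusted p = 1.36e-05), PGAM1 (0.29 ± 0.05) and PGK1 (0.27 ± 0.04) were also higher. Of the 18 glycolytic enzymes, 7 were called higher and 0 lower by edgeR. PFKFB3 (-0.40 ± 0.06, adjusted p = 4.28e-05) and SLC2A1 (-0.46 ± 0.12, adjusted p = 0.00738) were lower in KO. The SLC2A1 call ended without WT replicate 3 (adjusted p = 0.0534), which left 1 gene called lower. That of ENO2 (0.34 ± 0.09) ended without KO replicate 2 (0.0523). The call of HIF1A (0.18 ± 0.05) ended without WT replicate 3 or KO replicate 1 (0.0589 and 0.0645). For ALDOA (0.30 ± 0.08) it ended without WT replicate 1 or KO replicate 2 (0.0677 and 0.0517). HK2 (0.14 ± 0.05, adjusted p = 0.049) and ANKRD37 (0.94 ± 0.33, adjusted p = 0.0465) lost their calls without any 1 of 9 and of 7 libraries.

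With LPS, the knockout differed from WT in both directions. In KO LPS against WT LPS, 11 genes were called higher (32.4%) and 7 lower (20.6%), against 15.6% and 15.0% of all genes, 30.6% in all. The share of lower calls was near that of all genes. The median was 0.14 for the 34 and 0.03 for all genes. HK3 was higher by 1.27 ± 0.08, adjusted p = 6.48e-10, the largest change among genes above 5 CPM. Also higher were PFKFB4 (0.71 ± 0.08, adjusted p = 1.1e-06), ENO2 (0.59 ± 0.10), BNIP3 (0.53 ± 0.10) and SLC2A3 (0.36 ± 0.06). PFKFB3 (-0.53 ± 0.07, adjusted p = 6.18e-06), VEGFA (-0.52 ± 0.08), HIF1A (-0.45 ± 0.06, adjusted p = 4.75e-06), SLC16A1 (-0.36 ± 0.08), LDHA (-0.29 ± 0.05, adjusted p = 0.000325) and ENO1 (-0.22 ± 0.05) were lower. Without LPS, LDHA and HIF1A were higher in KO than in WT, and ENO1 was not called. CA12 had 20 and 26 counts in KO LPS against 52 and 55 in WT LPS, a ratio of 0.443 (95% counting interval 0.306 to 0.631). EGLN3 had 27 and 21 counts in KO LPS against 7 and 9 in WT LPS, a ratio of 3.09 (1.72 to 5.83). That ratio is descriptive, as EGLN3 passed the filter only through KO LPS. The CA12 call ended without WT LPS replicate 2 or KO LPS replicate 1 (adjusted p of 0.0636 and 0.072), and the EGLN3 call without either WT LPS library or KO LPS replicate 1 (0.0558 to 0.0693). Calls of HK2 (0.16 ± 0.06) and SLC16A3 (0.70 ± 0.21) ended without any 1 of 9 libraries. That of NDRG1 (0.22 ± 0.06) ended without WT LPS replicate 2 or KO LPS replicate 1 (adjusted p of 0.132 and 0.076), and that of ALDOA (0.39 ± 0.10) without KO LPS replicate 2 (0.0808). Without WT LPS replicate 2 there were 7 genes called higher, and with only the groups compared in the fit 6. That fit also ended the lower call of ENO1 and the higher call of PGAM1 (edgeR adjusted p of 0.0665 and 0.0899).

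**Figure D3:**
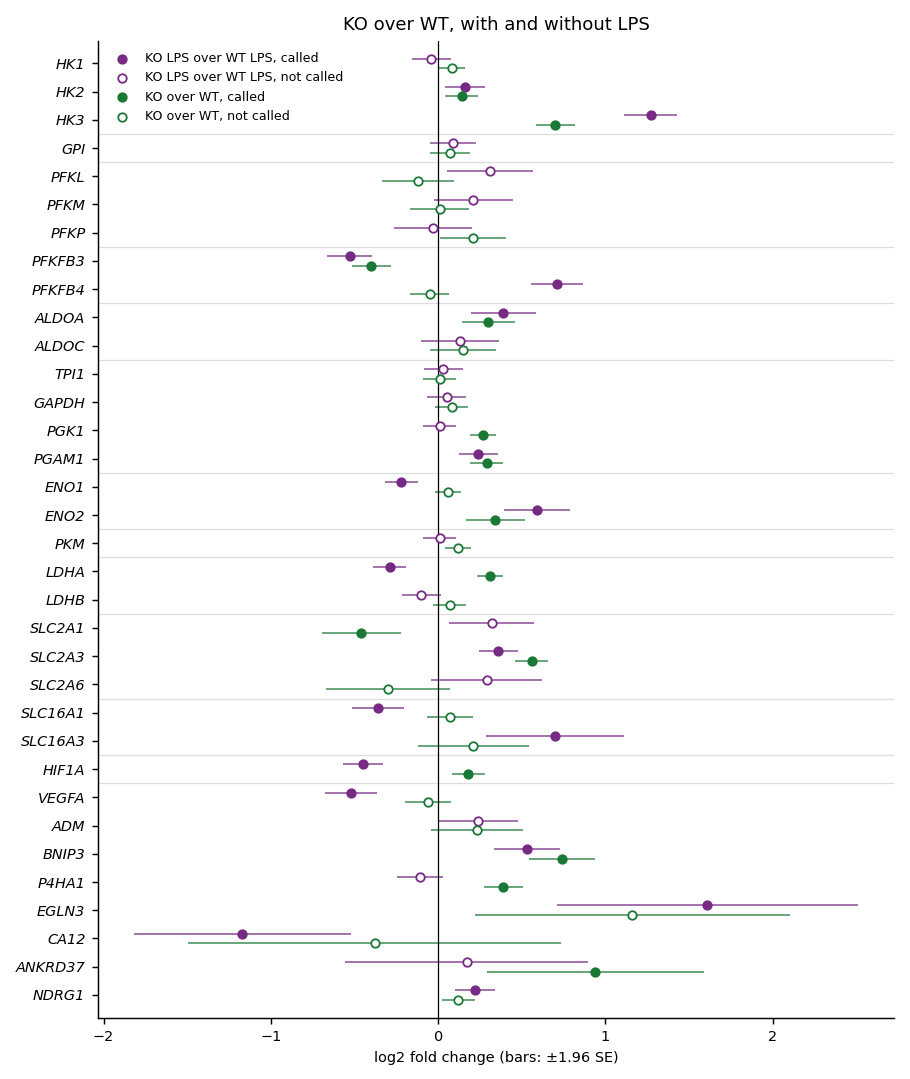
Log2 fold change of knockout over unedited cells (x axis) for the 34 genes (y axis, ordered by role), KO LPS over WT LPS in purple above KO over WT in green, with bars of 1.96 SE on each side and filled points for calls. HK3 and PFKFB4 lie farther right with LPS, while HIF1A and LDHA lie to the right of 0 without LPS and to the left of it with LPS.

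BMS265246 in LPS-treated knockout cells lowered part of the set, with SLC2A1, BNIP3, SLC2A6 and ENO2 the most among genes above 5 CPM, and raised SLC2A3 and LDHB. In KO LPS BMS against KO LPS, 15 of the 34 genes were called lower (44.1%) and 6 higher (17.6%), against 25.5% and 22.3% of all genes, 47.8% in all. The median was -0.13 for the 34 and -0.036 for all genes. Apart from HIF1A itself, lower genes were found in every class. They were 6 of 18 glycolytic enzymes, PFKFB3, 3 of 5 transporters and 5 of 8 HIF targets outside glycolysis. Of the 18 enzymes, 3 were called higher and 9 were not called. Their median was -0.04, near the -0.036 of all genes, so the enzymes were not lower as a class. Medians were -0.33 for the 5 transporters and -0.56 for the 8 HIF targets.

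Among the carriers, SLC2A1 had 13.3 and 10.6 CPM in KO LPS BMS and 26.3 and 32.3 in KO LPS, a change of -1.30 ± 0.14, adjusted p = 1.4e-07, and SLC2A6 had 110 and 98 CPM in KO LPS BMS and 200 and 281 in KO LPS, a change of -1.21 ± 0.18, adjusted p = 0.000484. Neither gene's groups overlapped. SLC2A3 went the other way, at 718 and 727 CPM in KO LPS BMS and 557 and 545 in KO LPS (0.39 ± 0.06, adjusted p = 2.62e-05), and its groups did not overlap either. SLC16A1 was lower (-0.33 ± 0.08, adjusted p = 0.0026), a call that ended without KO LPS replicate 1 (adjusted p = 0.0567).

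Of the enzymes, ENO2 fell to 19.5 and 23.6 CPM in KO LPS BMS, against 49.3 and 48.2 CPM in KO LPS (-1.17 ± 0.10, adjusted p = 4.91e-09). LDHA fell to 412 and 424 CPM in KO LPS BMS, against 720 and 678 CPM in KO LPS (-0.74 ± 0.05, adjusted p = 4.41e-10), while LDHB was higher (0.38 ± 0.06, adjusted p = 3.06e-05). HK2 (-0.61 ± 0.06, adjusted p = 2.38e-08), PFKP (-0.54 ± 0.12) and PKM (-0.29 ± 0.05) were lower, as was PFKFB3, the maker of the phosphofructokinase activator (-0.59 ± 0.07, adjusted p = 8.6e-07). For GAPDH (-0.03 ± 0.06), ENO1 (0.01 ± 0.05), ALDOA (0.05 ± 0.10), TPI1 (-0.13 ± 0.06), GPI (-0.06 ± 0.07) and PGAM1 (0.11 ± 0.06) no call was made. The bounds at 1.96 SE around these 6 changes ran from -0.25 for TPI1 to 0.25 for ALDOA. PGK1 (-0.15 ± 0.05, adjusted p = 0.0249) lost its call without KO LPS replicate 1 or either KO LPS BMS library (0.0852 to 0.452). PFKL was higher (0.46 ± 0.13, adjusted p = 0.0168), but not without KO LPS BMS replicate 1 (0.101). HK3 was higher (0.22 ± 0.08, adjusted p = 0.03), but not without KO LPS replicate 1 or KO LPS BMS replicate 1 (0.139 and 0.256).

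HIF1A transcript was not lower with the compound: it had 1021 and 1105 CPM in KO LPS BMS and 943 and 877 in KO LPS, a change of 0.22 ± 0.06, adjusted p = 0.00354, though the call ended without KO LPS BMS replicate 2 (adjusted p = 0.0768). Its targets were mixed. BNIP3 fell to 18.9 and 19.3 CPM in KO LPS BMS, against 42.8 and 46.5 CPM in KO LPS (-1.22 ± 0.11, adjusted p = 4.66e-09), and P4HA1 to 89.2 and 83.9 CPM in KO LPS BMS, against 167 and 149 CPM in KO LPS (-0.87 ± 0.07, adjusted p = 4.01e-09). EGLN3 had 2 and 3 counts in KO LPS BMS against 27 and 21 in KO LPS, a ratio of 0.111 with a 95% counting interval of 0.0345 to 0.278. Since EGLN3 passed the filter only through KO LPS, this ratio and its call are descriptive. CA12 had 7 and 3 counts in KO LPS BMS against 20 and 26 in KO LPS, a ratio of 0.232 (0.104 to 0.466), and lost its call without KO LPS BMS replicate 2 (adjusted p = 0.0506). VEGFA was lower, at -0.26 ± 0.08, adjusted p = 0.0109. Its call ended without KO LPS replicate 2 or KO LPS BMS replicate 2 (0.259 and 0.0693). ADM was higher, at 136 and 121 CPM in KO LPS BMS and 85.1 and 112 in KO LPS (0.38 ± 0.12, adjusted p = 0.0201), but not without KO LPS replicate 1 or KO LPS BMS replicate 1 (0.0755 and 0.135). Without KO LPS BMS replicate 1, 3 of the 34 genes were called higher in place of 6. ANKRD37 (0.02 ± 0.37) and NDRG1 (0.11 ± 0.06) were not called. Of the 8 genes whose promoter stretches are printed above, LDHA, ENO2, BNIP3, P4HA1, HK2, PFKFB3 and PFKP kept their lower call under all 19 alternatives tried, and PGK1 did not. Among the lower genes without a printed stretch, PKM, SLC2A1, SLC2A6 and EGLN3 kept theirs too, and SLC16A1, VEGFA and CA12 did not.

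**Figure D4:**
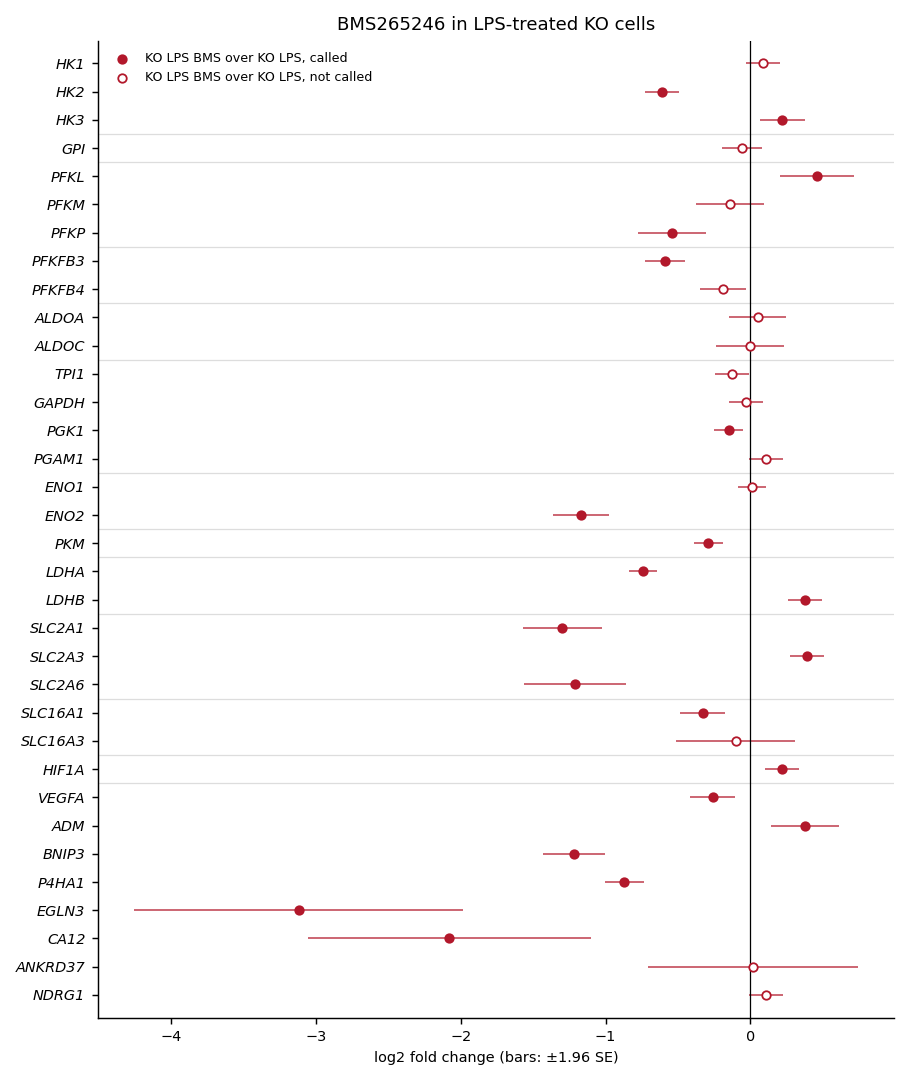
Log2 fold change of KO LPS BMS over KO LPS (x axis) for the 34 genes (y axis, ordered by role), with bars of 1.96 SE on each side and filled points for calls. EGLN3 and CA12, both under 5 CPM, lie farthest to the left with wide bars, followed by SLC2A1, BNIP3, SLC2A6 and ENO2, while PFKL, SLC2A3, LDHB and ADM lie farthest to the right.

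The combined treatment was also set against knockout cells without either agent. In KO LPS BMS against KO, 20 members were called higher (58.8%) and 5 lower (14.7%), against 30.3% and 32.4% of all genes, 62.7% in all. With library totals alone 11 were higher and 12 lower, and 26.1% of the calls over all genes were higher, against 48.4% with TMM. This comparison and that of KO LPS against KO share the KO libraries, so their values are given side by side. LDHA was at 412 and 424 CPM in KO LPS BMS and 435, 413 and 428 in KO and was not called (-0.02 ± 0.05, against 0.72 ± 0.05 with LPS alone). P4HA1 (-0.11 ± 0.07, against 0.76 ± 0.07) and ENO2 (-0.07 ± 0.10, against 1.1 ± 0.09) were not called either. With library totals alone these 3 genes were called lower than in KO (-0.36 for LDHA, -0.45 for P4HA1 and -0.40 for ENO2). By contrast SLC2A3 (2.36 ± 0.06, against 1.97 ± 0.06), ADM (3.42 ± 0.13, against 3.04 ± 0.13), HIF1A (1.06 ± 0.05, against 0.83 ± 0.05) and SLC2A6 (2.86 ± 0.19, against 4.07 ± 0.18) were called higher. HK2 (0.63 ± 0.05, against 1.24 ± 0.05) and PFKFB3 (1.14 ± 0.07, against 1.73 ± 0.07) were called higher as well. The 5 lower calls were HK1 (-0.16 ± 0.05), HK3 (-0.19 ± 0.07), PFKM (-0.28 ± 0.11), PFKFB4 (-0.31 ± 0.07) and EGLN3. Of these, PFKFB4 was still called whichever library was left out. HK1 lost its call without KO LPS BMS replicate 2 and HK3 without KO replicate 2 or 3 or KO LPS BMS replicate 2. EGLN3 lost it without KO replicate 3 or either KO LPS BMS library, and PFKM without any 1 of the KO or KO LPS BMS libraries. The 5 lower calls became 3 without KO replicate 2 or KO LPS BMS replicate 1, 2 without KO replicate 3 and 1 without KO LPS BMS replicate 2. EGLN3 had 2 and 3 counts in KO LPS BMS against 8, 6 and 15 in KO, a ratio of 0.318 (95% counting interval 0.096 to 0.83).

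Expressed as shares of a family per base of annotated exon, isoenzyme use moved with treatment. The exon length is the union over all annotated transcripts, and shares are means ± SD over libraries. LDHA made up 35% ± 0.165 of lactate dehydrogenase transcript in KO LPS BMS, 54% ± 0.621 in KO LPS, 57.2% ± 0.949 in WT LPS, 38.8% ± 0.777 in KO and 34.9% ± 0.192 in WT. LDHA was the larger share in both groups with LPS alone and the smaller share in the other 3 groups. HK3 made up 53.4% ± 0.992 of hexokinase transcript in KO LPS BMS, 44.9% ± 1.78 in KO LPS, 26.3% ± 1.26 in WT LPS, 59.2% ± 1.44 in KO and 49% ± 0.685 in WT. HK2 accounted for 21.6% ± 0.39 in KO LPS BMS, 32.2% ± 1.35 in KO LPS, 40.6% ± 0.303 in WT LPS, 13.6% ± 0.568 in KO and 16.6% ± 0.279 in WT. With this length HK2 was the largest hexokinase share in WT LPS and HK3 in the other 4 groups. With the longest transcript as the length, HK1 was the largest in WT LPS (42.4%, against 34.7% for HK2 and 22.9% for HK3) and in WT (43.6%, against 42.3% for HK3), so the order of the hexokinases rests on the length used. SLC2A3 was the largest share of the 3 glucose carriers in each group. It made up 78.6% ± 1.67 in KO LPS BMS, 55% ± 6.13 in KO LPS, 53.7% ± 4.76 in WT LPS, 79.2% ± 1.76 in KO and 66.8% ± 2.27 in WT. SLC2A6 took 19.7% ± 1.42 in KO LPS BMS, 41.3% ± 5.94 in KO LPS, 42.5% ± 4.6 in WT LPS, 14.1% ± 1.79 in KO and 21.5% ± 1.26 in WT. PFKL was 70.7% to 84.4% of phosphofructokinase transcript on group average, and ALDOA 96.7% to 97.8% of aldolase. ENO1 was 96.2% to 98.3% of enolase and SLC16A3 87.2% to 95.5% of the monocarboxylate carriers. With the longest transcript as the length, LDHA averaged 41.6% in KO LPS BMS, 60.8% in KO LPS, 63.9% in WT LPS, 45.7% in KO and 41.6% in WT. The level of the share thus rests on the length used. These shares were not tested.

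**Figure D5:**
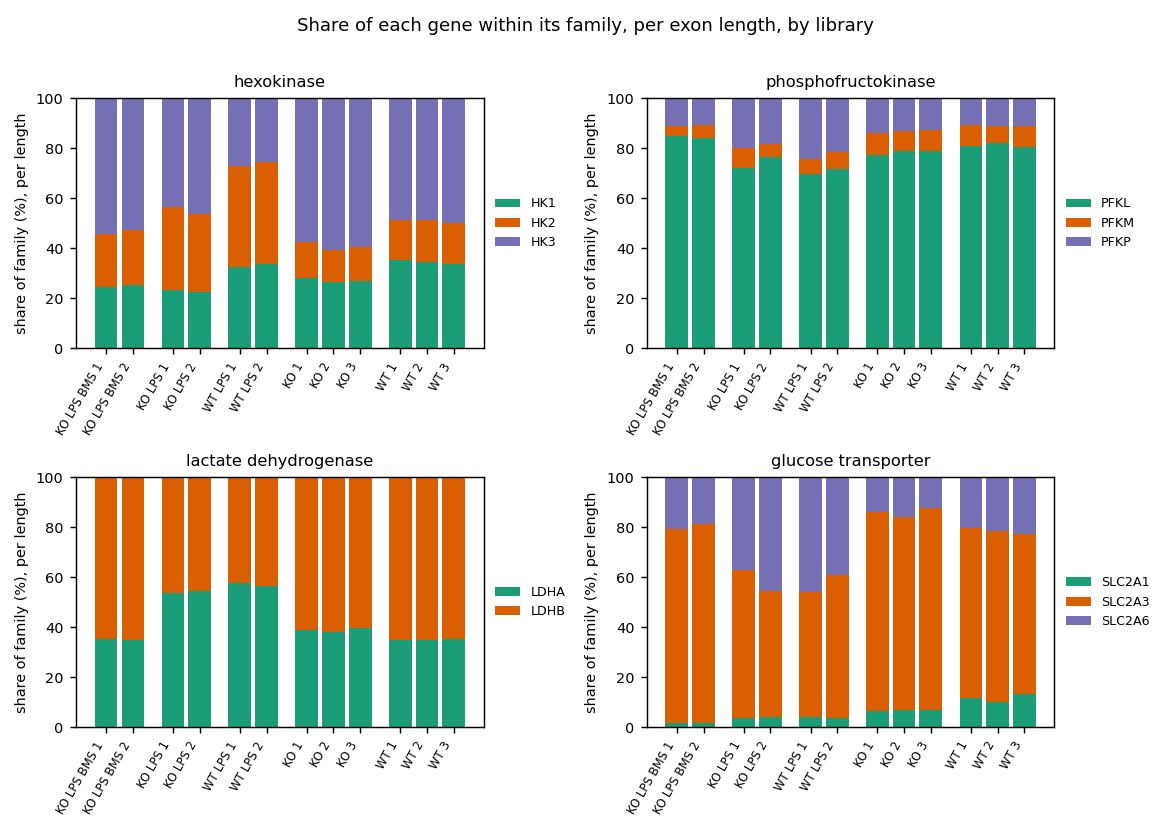
Share of each gene (y axis, percent of the family total per base of annotated exon) in 4 families, 1 stacked bar per library (x axis). LDHA exceeds LDHB in KO LPS and WT LPS and not in the other libraries, and the SLC2A3 share is lowest in the libraries with LPS alone.

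Summed over the 18 enzymes, the level was 9924 and 9389 CPM in KO LPS BMS, 10354 and 10414 CPM in KO LPS, 10627 and 9732 CPM in WT LPS, 7765, 7915 and 7747 CPM in KO, and 7142, 7039 and 6959 CPM in WT. The sum is not per length, so long and strongly expressed transcripts weigh most. On this TMM scale the LPS libraries with or without the compound all lay above the libraries without LPS. As a share of the library's counts, without TMM scaling, the sum was 0.864% and 0.829% in KO LPS BMS, 0.972% and 0.958% in KO LPS, 0.958% and 0.882% in WT LPS, 0.866%, 0.871% and 0.858% in KO, and 0.782%, 0.779% and 0.768% in WT. On that scale KO LPS BMS was not above KO.

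Genes around the set were counted in 7 lists, and some genes, such as GBE1, PDK1 and EGLN1, stand in more than 1 of them. The lists too were chosen with earlier results of these data known. Of 38 tested genes in a list of 40 other known HIF targets, 6 were called higher and 26 lower in KO LPS BMS against KO LPS, with a median of -0.53 against -0.036 for all genes, of which 22.3% were called higher and 25.5% lower. In the same list 22 were higher and 5 lower in KO LPS against KO (median 0.43), where 24.5% of all genes were called higher and 20.3% lower. In WT LPS against WT 23 were higher and 7 lower (median 0.56), against 28.9% and 30.8% of all genes. In KO against WT 6 were higher and 4 lower (median 0.02), against 10.2% and 11.4% of all genes. AK4, a mitochondrial adenylate kinase, had the largest called rise with LPS, to 14 to 15 CPM in KO LPS and 11.9 to 13.9 CPM in WT LPS. It had 22 counts in all in KO and 19 in WT, and its ratios were 34.4 (95% counting interval 22.4 to 55.4) in KO LPS over KO and 38.9 (95% counting interval 24.6 to 65.3) in WT LPS over WT. PLOD2, a collagen lysyl hydroxylase, was higher in KO against WT (1.11 ± 0.08). PPFIA4 was lower with the compound (-1.44 ± 0.19, adjusted p = 1.89e-06). Of the 11 glycogen genes, 0 were higher and 8 lower in KO LPS BMS against KO LPS, with a median of -0.63, where 22.3% and 25.5% of all genes were called in those directions. With LPS, 5 of these 11 were higher and 3 lower in each genotype. Of all genes, 24.5% were higher and 20.3% lower in KO cells, and 28.9% and 30.8% in WT cells, so the lower count is near these shares. GBE1, the branching enzyme, was higher, at 1.22 ± 0.09 in KO cells and 1.54 ± 0.08 in WT cells.

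Among the 11 tested genes for HIF subunits and oxygen sensing, 5 were higher and 4 lower in KO LPS BMS against KO LPS, against 22.3% and 25.5% of all genes. EGLN1, the main HIF prolyl hydroxylase, was lower (-0.91 ± 0.07, adjusted p = 7.76e-10) and EGLN2 higher (0.63 ± 0.16, adjusted p = 0.00225). CITED2, which competes with HIF for its coactivator, was lower with LPS in both genotypes (-0.69 ± 0.11 in KO cells and -1.20 ± 0.11 in WT cells). Of 30 genes that carry pyruvate into the TCA cycle, 13 were higher and 5 lower in KO LPS BMS against KO LPS, again beside 22.3% and 25.5% of all genes. PDK1, an inhibitory kinase of pyruvate dehydrogenase, was lower (-1.0 ± 0.11, adjusted p = 1.69e-07). MPC1, a subunit of the mitochondrial pyruvate carrier, was higher (0.69 ± 0.10, adjusted p = 6.97e-06). PDK4, another such kinase, ranged over 0.644 to 0.709 CPM in KO LPS BMS, 0.889 to 1.23 in KO LPS, 2.19 to 3.75 in WT LPS, 21.1 to 25 in KO and 105 to 117 in WT. Its changes were -4.43 ± 0.19, adjusted p = 7.66e-15 in KO LPS over KO, -5.20 ± 0.14, adjusted p = 1.11e-18 in WT LPS over WT and -2.25 ± 0.09, adjusted p = 1.19e-14 in KO over WT. The other 29 genes of that list were not called in KO against WT, where 21.6% of all genes were called.

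In the pentose phosphate pathway, 4 of 7 genes were higher with LPS in both genotypes, with 2 lower in KO cells and 3 in WT cells. The shares of all genes called higher were 24.5% in KO cells and 28.9% in WT cells, and of those called lower 20.3% and 30.8%. RPIA, which interconverts pentose phosphates, had the largest called rise (0.71 ± 0.11 in KO cells and 0.87 ± 0.10 in WT cells). Of 11 tested genes among 20 other isoenzymes and regulators, FBP1, the gluconeogenic fructose bisphosphatase, was higher in KO against WT (0.74 ± 0.07, adjusted p = 3.63e-08), in KO LPS against WT LPS (1.11 ± 0.09) and in KO LPS BMS against KO LPS (0.61 ± 0.08). PFKFB2, a further relative of PFKFB3, was lower with LPS (-0.81 ± 0.07 in KO cells and -1.18 ± 0.07 in WT cells). In that list 1 gene was higher and 5 lower in KO LPS against KO, and 3 higher and 5 lower in WT LPS against WT, beside those same shares of all genes. Of 10 tested genes among 11 other sugar and lactate carriers, SLC16A7 (MCT2) rose with LPS by 1.55 ± 0.16, adjusted p = 3.52e-08 in KO cells and 3.80 ± 0.17, adjusted p = 9.15e-15 in WT cells. The difference was itself called (-2.25 ± 0.24, adjusted p = 2.22e-06). SLC16A7 was also lower in KO LPS BMS against KO LPS (-1.58 ± 0.18).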

How the data were processed

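The deposited file is a single table of raw counts, whole numbers for each gene in 12 libraries, and the titles of the samples put these in 5 groups. TRIzol extraction and the NEBNext Ultra RNA kit were used, per the labels' protocols, and the submitters' processing notes name CASAVA 1.7, Cufflinks and GRCh38. The sources used here do not give the aligner, counter, strand setting or annotation release. Of 57992 gene IDs, 57388 were named and placed with GENCODE release 29, and 24552 had no count. Reads of a gene and of its pseudogenes or copies can be split by counting: SLC2A14 had 0.484% as many counts as SLC2A3, and pseudogenes named after a member had 8.04% as many for EGLN3, 3.39% for BNIP3, 1.76% for TPI1 and under 1% for the others.

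filterByExpr kept 16022 genes. edgeR 4.0.16 (R 4.3.3) fitted all 12 libraries with TMM factors (0.872 to 1.12), 1 mean per group and robust quasi-likelihood. Groups of 2 borrow their spread from all groups (common BCV 0.0635). The 7 comparisons used the 2-sided quasi-likelihood F test with Benjamini-Hochberg adjustment over all genes, called under 0.05. SE is the change divided by the square root of F. The fit was tested on simulated data. Alternatives were DESeq2 1.42.0, its size factors, library totals alone, no filter, only the groups compared, a replicate block and leaving out each library. The members and lists were chosen with earlier results of these data known. Values in every library are given for members called at an absolute log2 fold change of at least 1 or with a called interaction, and for the main isoenzyme of a class; from each list, the called gene above 5 CPM with the largest change per direction could be named, and some are not reported here. The p-values set differences between group means against the spread between libraries, which was estimated from all 12. The labels give the independence of the libraries only as biological replicates.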

Additional observations from a re-analysis of the deposited data

Results flagged for a closer look

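The LPS response differed between the genotypes, by a test of the difference itself with edgeR, for 10 members; each value is the log2 change in KO cells minus that in WT cells. The difference was positive for HK3 (0.57), PFKFB4 (0.76) and SLC2A1 (0.78). It was negative for LDHA (-0.60), HIF1A (-0.63), P4HA1 (-0.50), VEGFA (-0.46), SLC16A1 (-0.43), ENO1 (-0.28) and PGK1 (-0.26). The replicate spread of the KO LPS pair, which was wider than that of any other pair, enters each of these values, and its part in them was not tested beyond leaving each library out.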

How the results depend on the processing

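Calls by edgeR were followed through every alternative except the replicate block with crossed KO LPS numbers, described below. Those kept throughout numbered 8 of 14 in KO against WT, 21 of 28 in WT LPS against WT and 21 of 26 in KO LPS against KO. They numbered 10 of 18 in KO LPS against WT LPS and 7 of 10 for the interaction. With the compound, 13 of 21 were kept in KO LPS BMS against KO LPS and 12 of 25 in KO LPS BMS against KO. Library totals alone moved the median of all genes to -0.36 in WT LPS against WT, -0.26 in KO LPS against KO and -0.39 in KO LPS BMS against KO. The higher calls then made up 26.7%, 25.5% and 26.1% of calls, against 48.4%, 54.7% and 48.4% with TMM. For the interaction that share was 53.5% with TMM, 65.3% with library totals alone, 43.5% with DESeq2's size factors and 42.4% with only the groups compared. With library totals alone 9 members were lower in WT LPS against WT and 7 in KO LPS against KO, and 11 were higher and 12 lower in KO LPS BMS against KO. Changes turned for PGAM1 (-0.17) and LDHB (-0.28) in WT LPS against WT, PGAM1 (-0.18) and NDRG1 (-0.24) in KO LPS against KO, and GPI (-0.042), ALDOC (-0.32), TPI1 (-0.12), PGAM1 (-0.16), PKM (-0.17), LDHB (-0.12) and NDRG1 (-0.21) in KO LPS BMS against KO. Each turned in the direction of the shift of all genes. Only the groups compared gave 6 higher members in KO LPS against WT LPS and 2660 called genes in place of 4900. In KO LPS BMS against KO, DESeq2 gave 2 lower members.

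Leaving out 1 library at a time gave, for KO against WT, 8 to 13 members higher and 1 to 2 lower. The range was 21 to 24 higher and 2 to 5 lower for WT LPS against WT, 23 higher and 2 to 4 lower for KO LPS against KO, and 7 to 12 higher and 6 to 8 lower for KO LPS against WT LPS. It was 3 to 5 higher and 5 to 8 lower for the interaction, 3 to 6 higher and 12 to 17 lower for KO LPS BMS against KO LPS, and 18 to 21 higher and 1 to 5 lower for KO LPS BMS against KO. The lowest of the WT LPS against WT lower counts came without WT LPS replicate 2. Over all genes, KO LPS against WT LPS had 3138 calls without WT LPS replicate 2 and 3005 without KO LPS replicate 2, and the interaction, with 1920 calls, had 1212 without WT LPS replicate 2, 3079 without KO LPS replicate 1 and 1162 without KO LPS replicate 2.

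Deviations from the group mean were correlated between samples over genes, which are themselves not replicates. Samples that share a replicate number had correlations of -0.143 to 0.103 over 21 pairs, and samples with other numbers -0.103 to 0.143 over 36. In groups of 2 libraries the deviations mirror each other, so these pairs are not separate checks. They cannot decide whether equal numbers mark paired samples. The numbers were not taken as pairs in the main fit. The replicate block gave 2 lower members in KO LPS BMS against KO. With the KO LPS numbers crossed, an alternative chosen after seeing the data, the block also gave 2 there. The cause of these differences was not tested. EGLN3, CA12 and ANKRD37 are limited by counts of 2 to 55 in a library.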
